A study of Mus musculus with 4 samples.

Results

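Layer 6 corticothalamic neurons were followed as 1 of the 67 cell types to which the authors assigned shares of each spot in 4 mouse brain sections. The column is headed Glutamatergic_L6_CT_CTX, written L6_CT below, and other types are given without their class prefix. A spot is a small area of a barcoded slide whose RNA is read together, so it can hold several cells or part of one. A spot was taken to hold L6_CT where its deposited share was above 0. This gave 900 of 14809 spots: 228 of 3733 in the control section, 286 of 4156 in the resilient section, 173 of 3443 in the susceptible section and 213 of 3477 in the ketamine-treated section.

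All sections came from wild-type C57 mice, and each group was 1 sagittal section. Resilient and susceptible mice were separated by a social interaction test after chronic social defeat, a stress in which some mice become socially avoidant and others do not. The fourth section came from a susceptible mouse given ketamine intraperitoneally at 10 mg/kg, with brain collected 7 days later. The other mice received saline. The labels used here give neither the age of the mice nor how the control mouse was handled. With 1 section per group there was no replicate and no test, so intervals below are exact Clopper-Pearson 95% intervals that cover counting error only, and neighbouring spots are not independent. Mouse, cutting plane, slide and group cannot be told apart in any comparison of sections.

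Corticothalamic neurons are the excitatory cells of layer 6, the deep layer of the cortex, that send their axons to the thalamus. On the way they leave collaterals in the thalamic reticular nucleus and in the middle layers of their own column, and they are known for adjusting the gain of sensory input. Their neighbours are layer 6 intratelencephalic neurons (L6_IT), which project within the cortex, layer 5 output neurons above, and layer 6b neurons below, at the edge of the white matter. The files hold shares of types and no genes, so the label could be set only against the types and clusters it occurred with, not against marker genes.

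L6_CT was a moderately common type in every section and was most frequent in the resilient section. In the resilient section 6.88% of spots held it (interval 6.13 to 7.69), against 5.02% in the susceptible section (4.32 to 5.81). The ketamine-treated section had 6.13% (5.35 to 6.98) and the control 6.11% (5.36 to 6.92). Ordered from high to low, the sections ran resilient, ketamine-treated, control, susceptible. The intervals of neighbours in that order overlapped, and only the resilient and susceptible intervals did not overlap. Averaged over all spots, L6_CT took 3.19% of the control, 3.74% of the resilient, 2.98% of the susceptible and 3.56% of the ketamine-treated section. By this mean it ranked 9th, 7th, 8th and 7th among the 67 types.

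No pair of sections differed by 1.5-fold in the share of spots holding L6_CT. Over all types held by at least 1% of spots in either section, the percentage past 1.5-fold was 40.0% for resilient against control, 38.7% for susceptible against control and 24.1% for ketamine-treated against control. It was 38.9% for susceptible against resilient, 37.1% for ketamine-treated against resilient and 19.4% for ketamine-treated against susceptible. The widest L6_CT difference was between the susceptible and resilient sections, with a ratio of 0.730 (counting interval 0.608 to 0.877). Susceptible over control was 0.823 (0.679 to 0.997) and ketamine-treated over susceptible was 1.22 (1.003 to 1.48). Resilient over control was 1.13 (0.952 to 1.33), ketamine-treated over resilient 0.890 (0.750 to 1.06), and ketamine-treated over control 1.003 (0.837 to 1.20).

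L6_CT lay almost wholly in 2 of the 17 deposited clusters. Clusters 2 and 9 held 879 of the 900 spots, or 97.7%. Cluster 2, in which L5_PT_RSP_ACA, L6_CT and L5_IT_CTX were the leading types, held 205 control, 249 resilient, 158 susceptible and 186 ketamine-treated L6_CT spots. That is 89.9% of the L6_CT spots of the control (85.2 to 93.5), 87.1% of the resilient (82.6 to 90.7), 91.3% of the susceptible (86.1 to 95.1) and 87.3% of the ketamine-treated section (82.1 to 91.5). These 4 intervals overlapped. Cluster numbers were taken to mean the same cluster in every section, which the labels do not state; all comparisons by cluster rest on it. Cluster 9, in which Astro (astrocytes) and L5_PT_RSP_ACA had the highest mean shares, held 14, 33, 11 and 23 L6_CT spots in the same order. In 9 of the 17 clusters, no spot of any section held L6_CT.

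Within cluster 2 the susceptible section stood below the other sections. There 20.8% of susceptible spots held L6_CT (17.9 to 23.8). The value was 28.05% in the ketamine-treated section (24.7 to 31.6), 28.6% in the control (25.3 to 32.1) and 32.5% in the resilient section (29.2 to 36.0). The susceptible interval overlapped with none of the other 3, which overlapped with each other. Cluster 2 itself was a larger part of the susceptible section, at 22.1% of its spots against 18.4% to 19.2% of the spots of the other sections. Counted only in cluster 2, the resilient section had 1.57 times the susceptible share, which is past 1.5-fold, and the ketamine-treated section 1.35 times (1.12 to 1.63). In cluster 9 the shares were 13.6% (7.63 to 21.8), 16.5% (11.6 to 22.4), 15.1% (7.77 to 25.4) and 8.55% (5.50 to 12.6) in the order control, resilient, susceptible, ketamine-treated, with overlapping intervals.

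**Figure D1:**
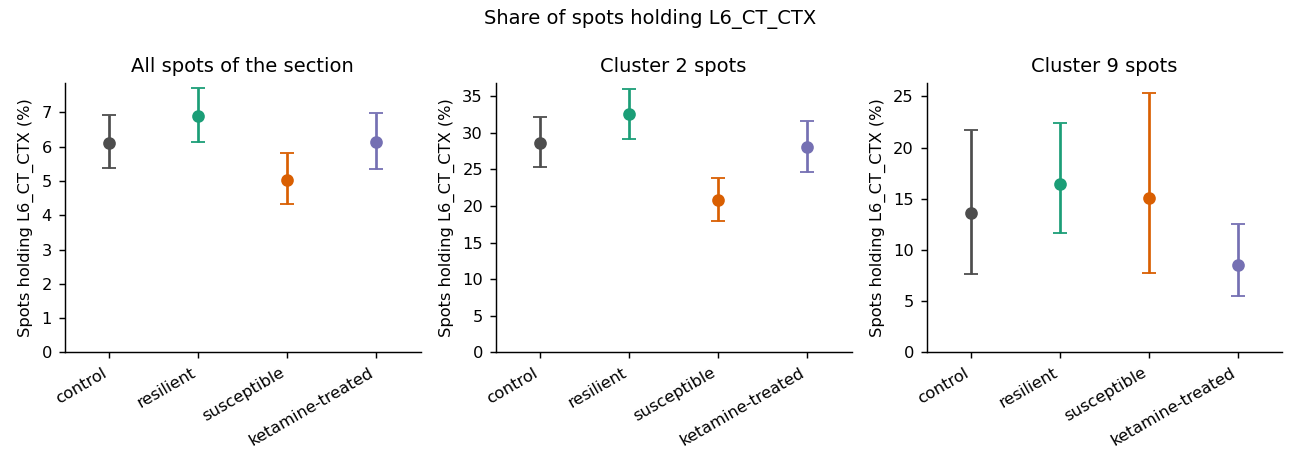
Share of spots holding L6_CT_CTX (vertical axes, percent, from 0) in all spots, in cluster 2 and in cluster 9 of the 4 sections. Points are the shares and bars the exact 95% counting intervals. The susceptible section is lowest over all spots (5.02%) and in cluster 2 (20.8%), and the ketamine-treated section is lowest in cluster 9 (8.55%).

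The 21 L6_CT spots outside clusters 2 and 9 differed in kind from the rest. Oligodendrocytes (Oligo), the myelinating cells, were present in 17 of them. Cluster 7, with a mean Oligo share of 71.0%, held 13 of these spots, and all 13 contained Oligo. In those 13 spots L6_CT averaged 26.3% and reached at most 43.9%, and it led none of them. These spots are too few to compare by section. In cluster 2, by contrast, L6_CT had the highest share in 627 of its 798 spots.

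Where L6_CT was present it usually filled a large part of the spot. Its mean share was highest in the susceptible section, at 59.4% ± 23.6 (SD over 173 spots), and 58.1% ± 23.7 in the ketamine-treated section (213 spots). The resilient section had 54.4% ± 22.6 (286 spots) and the control 52.3% ± 23.4 (228 spots). The SDs are the spread of spots in 1 section, not of mice. Medians were 48.1%, 50.7%, 53.2% and 56.5% in the order control, resilient, susceptible, ketamine-treated. The susceptible section thus combined the lowest share of spots with the highest mean share per spot, and its mean share over all spots was 0.934 times that of the control. The smallest kept L6_CT share was 18.1%, 15.4%, 17.2% and 17.5% in the 4 sections.

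L6_CT was the type with the highest share in most of its spots. In the control it led 152 of 228 (66.7%, 60.1 to 72.8). It led 227 of 286 in the resilient section (79.4%, 74.2 to 83.9), 138 of 173 in the susceptible section (79.8%, 73.0 to 85.5) and 173 of 213 in the ketamine-treated section (81.2%, 75.3 to 86.2). The control interval lay below the other 3. It was the only type in 34 susceptible spots (19.7%, 14.0 to 26.4) and 34 ketamine-treated spots (16.0%, 11.3 to 21.6), and in 36 resilient (12.6%, 8.97 to 17.0) and 28 control spots (12.3%, 8.32 to 17.3), with overlapping intervals. Between these whole spots and the rest there was a gap, since the highest share in a mixed spot was 79.5%, 80.2%, 74.05% and 80.5%. For L6b_CTX, L5_IT_CTX and L2_3_IT_CTX it was 72.4% to 81.0% over the sections, so this upper limit was not particular to L6_CT.

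**Figure D2:**
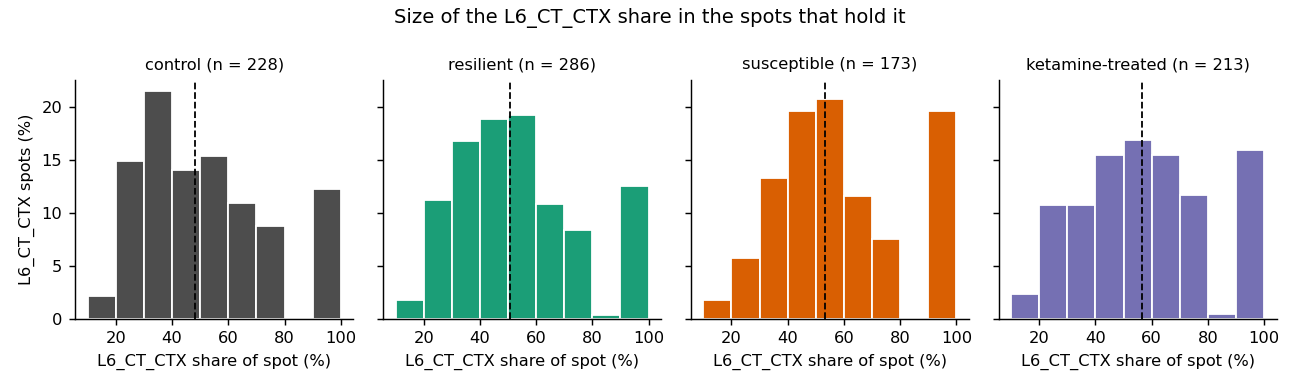
Distribution of the L6_CT_CTX share (horizontal axes, percent of the spot, in steps of 10) among the spots that hold it (vertical axis, percent of those spots) in each section. Dashed lines are medians, which run from 48.1% in the control to 56.5% in the ketamine-treated section, and the last bar holds only the spots in which L6_CT was the only type.

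The mean share was lower in spots with more types, up to 4. With 1 partner, L6_CT averaged 58.5% in 86 control spots, 60.5% in 102 resilient spots, 58.5% in 76 susceptible spots and 63.02% in 85 ketamine-treated spots. With 2 partners it averaged 38.9%, 42.7%, 40.3% and 43.3%. L6_CT spots kept 2.54, 2.57, 2.24 and 2.43 types on average, against 2.24, 2.31, 2.09 and 2.16 in the other spots of the same sections. Spots chosen for holding L6b_CTX, L5_IT_CTX or L2_3_IT_CTX also held more types than the rest of their section, with 2.61, 2.96 and 2.67 in the control, so this was no trait of L6_CT.

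The most frequent partner of L6_CT in every section was a layer 5 type, L5_PT_RSP_ACA. In the control it was level with Oligo, at 61 against 60 spots. Each type held by at least 1% of either set of spots was compared between the L6_CT spots and all other spots of the same section, and a 1.5-fold ratio counted as over- or under-represented. In the control, 9 of 31 types were over-represented (29.0%) and 18 under-represented (58.1%). The resilient section had 5 of 34 (14.7%) and 23 (67.6%). For the susceptible section the counts were 9 of 35 (25.7%) and 15 (42.9%), and for the ketamine-treated section 5 of 29 (17.2%) and 15 (51.7%). Only 5 types were over-represented in all 4 sections: L6b_CTX, L6b_CT_ENT, L6_IT_CTX, L5_IT_TPE_ENT and L5_PT_RSP_ACA. Another 12 were under-represented in all 4. Among the 5, the control ratio of L5_IT_TPE_ENT rested on 4 spots (1.71 times, 0.613 to 4.76). That of L6b_CT_ENT rested on 5 spots (2.65 times, 1.04 to 6.78).

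A second comparison asked how much of this the clusters already gave. For each partner, a cluster-matched value was computed, the share of L6_CT spots that would hold it if they held it as often as the other spots of their own clusters. Since cluster 2 supplied most L6_CT spots, this mainly sets L6_CT spots against the rest of cluster 2. By the way they were chosen, all L6_CT spots have an L6_CT share above 0. L6_CT takes over 50% of its spots on average, which leaves less room for every partner. Within cluster 2, a partner was therefore also measured as its mean share of the part of the spot that is not L6_CT, leaving out spots of L6_CT alone, and set against its mean share of the other cluster 2 spots. This measure was added after the values were seen, and it rests on 181 control, 218 resilient, 124 susceptible and 156 ketamine-treated L6_CT spots.

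L6b_CTX, the layer 6b neurons, was present in 24 of 228 control L6_CT spots (10.5%, 6.86 to 15.3), 51 of 286 resilient (17.8%, 13.6 to 22.8), 13 of 173 susceptible (7.51%, 4.06 to 12.5) and 30 of 213 ketamine-treated L6_CT spots (14.1%, 9.71 to 19.5). Of the other spots, at most 1.97% in any section held it, and the ratios were 5.35, 9.58, 7.45 and 8.36. The cluster-matched values were 8.44%, 8.44%, 4.21% and 7.81%. L6b_CTX was above them in every section, by 1.25, 2.11, 1.78 and 1.80 times, but only in the resilient and ketamine-treated sections did the interval exclude the matched value. Of the part of the spot that is not L6_CT, within cluster 2, it took 1.60, 2.35, 2.39 and 2.67 times its share of the other spots. Seen from the other side, 118 of the 347 spots with L6b_CTX (34.0%) also held L6_CT, while those 118 were 13.1% of the L6_CT spots.

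L6b_CT_ENT, a layer 6b and corticothalamic type named for the entorhinal area, split the sections. It was in 31 resilient L6_CT spots (10.8%, 7.48 to 15.03) and 14 susceptible L6_CT spots (8.09%, 4.49 to 13.2), but in 5 control (2.19%, 0.72 to 5.04) and 6 ketamine-treated L6_CT spots (2.82%, 1.04 to 6.03). The resilient interval did not overlap with those of the control and ketamine-treated sections, while the susceptible interval did. Against cluster-matched values of 2.27% and 1.16%, the resilient and susceptible shares were 4.78 and 6.96 times as high. The ketamine-treated share was 3.602 times its matched value of 0.782%, which its interval excluded, and the control share 1.22 times its own, which its interval contained. In the resilient and susceptible sections most spots with L6b_CT_ENT also held L6_CT, 31 of 59 (52.5%) and 14 of 27 (51.9%). The values were 5 of 34 (14.7%) in the control and 6 of 28 (21.4%) in the ketamine-treated section.

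L6_IT_CTX, the intratelencephalic type of the same layer, was a rarer partner. It shared 11 control, 8 resilient, 8 susceptible and 14 ketamine-treated L6_CT spots, or 4.82%, 2.80%, 4.62% and 6.57%. The ratios to other spots were 7.05, 2.46, 2.91 and 8.94. Set against the cluster-matched values it was higher in the control (1.43 times) and ketamine-treated sections (2.06 times) and lower in the resilient (0.962 times) and susceptible sections (0.673 times), so its direction depended on the background. Every matched value except that of the ketamine-treated section, 3.19%, was compared with an interval that contained it; the ketamine-treated interval was 3.64 to 10.8.

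The 9 other columns named for layer 6 were also taken as a list. They are part of a wider deep-layer list of 14 types set beforehand, which the shorter list was not. At least 1 of them was in 18.9% of control L6_CT spots (14.0 to 24.6), 30.8% of resilient (25.5 to 36.5), 22.5% of susceptible (16.5 to 29.5) and 23.0% of ketamine-treated L6_CT spots (17.5 to 29.2). In the remaining spots of cluster 2 the values were 15.1% (12.08 to 18.5), 15.9% (12.8 to 19.3), 13.4% (10.8 to 16.4) and 13.8% (10.9 to 17.3). The intervals did not overlap in the resilient, susceptible and ketamine-treated sections and overlapped in the control. Of the listed types common enough to compare with all other spots, 3 of 3, 3 of 3, 5 of 5 and 3 of 3 were over-represented. Among all types compared in this way, 29.0%, 14.7%, 25.7% and 17.2% were over-represented. These counts are against all other spots of the section, not against spots of the same clusters.

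The layer 5 types differed among themselves once the clusters were matched. L5_PT_RSP_ACA, a pyramidal tract type named for retrosplenial and anterior cingulate cortex, was the most frequent partner of all. It was in 61 control (26.8%, 21.1 to 33.0), 93 resilient (32.5%, 27.1 to 38.3), 50 susceptible (28.9%, 22.3 to 36.3) and 92 ketamine-treated L6_CT spots (43.2%, 36.4 to 50.1). Other spots held it at 12.3%, 20.9%, 15.2% and 15.7%, which made it over-represented by 2.18, 1.56, 1.90 and 2.75 times. The cluster-matched values were 44.3%, 61.02%, 51.2% and 52.2%, and every L6_CT interval lay below its own. Of the part of the spot that is not L6_CT, within cluster 2, it took 17.1%, 21.4%, 24.3% and 29.06%, against 19.5%, 27.5%, 21.9% and 20.2% of the other spots. It was thus commoner beside L6_CT than in the section at large, while its direction within cluster 2 depended on the measure in the susceptible and ketamine-treated sections.

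L5_IT_CTX, the layer 5 intratelencephalic type, shared 42 control L6_CT spots (18.4%, 13.6 to 24.1), 36 resilient (12.6%, 8.97 to 17.0), 5 susceptible (2.89%, 0.945 to 6.62) and 18 ketamine-treated L6_CT spots (8.45%, 5.09 to 13.03). The susceptible interval did not overlap with those of the control and resilient sections. Other spots held L5_IT_CTX at 9.61%, 8.84%, 7.83% and 8.82%, so the type was over-represented only in the control (1.92 times) and under-represented only in the susceptible section (ratio 0.369, 0.154 to 0.883). Cluster-matched values of 45.5%, 39.95%, 32.2% and 31.6% were above the L6_CT interval in all 4 sections. Of the part that is not L6_CT, within cluster 2, L5_IT_CTX took 13.1%, 9.49%, 2.32% and 4.32%, against 19.8%, 16.4%, 14.6% and 12.8% of the other spots. It was lower by both measures in all 4 sections.

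L5_IT_TPE_ENT, a layer 5 type named for temporal, perirhinal, ectorhinal and entorhinal areas, followed the section pattern of L6b_CT_ENT. It was in 59 resilient (20.6%, 16.1 to 25.8) and 22 susceptible L6_CT spots (12.7%, 8.14 to 18.6), against 4 control (1.75%, 0.48 to 4.43) and 9 ketamine-treated L6_CT spots (4.23%, 1.95 to 7.87). The intervals of the first pair did not overlap with those of the second. In the other spots it was also commonest in the resilient section (4.16%), followed by the susceptible (2.11%), ketamine-treated (1.78%) and control sections (1.03%). Against cluster-matched values it was 1.23 and 1.72 times as frequent in the resilient and susceptible L6_CT spots, and 0.368 and 0.705 times in the control and ketamine-treated ones. Of the part that is not L6_CT, within cluster 2, it took 1.30, 1.97, 4.32 and 1.28 times its share of the other spots, so the control and ketamine-treated directions depended on the measure.

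L2_IT_RSP_ACA, a layer 2 type of retrosplenial and anterior cingulate name, ran partly the other way. It was in 37 control (16.2%, 11.7 to 21.7), 18 susceptible (10.4%, 6.28 to 15.9) and 39 ketamine-treated L6_CT spots (18.3%, 13.4 to 24.2), but in only 8 resilient L6_CT spots (2.80%, 1.22 to 5.44). The resilient interval was below all others. The resilient section also had the least of it in other spots, at 6.02% against 9.05% to 12.9% in the rest. Over the 4 sections together L2_IT_RSP_ACA was at 0.565 times its cluster-matched value, with 0.966 in the control, 0.265 in the resilient and 0.443 in the susceptible section. Of the part that is not L6_CT, within cluster 2, its ratios were 1.73, 0.666, 0.882 and 1.03 in the order control, resilient, susceptible, ketamine-treated. Its control direction thus depended on the measure. L4_5_IT_TPE_ENT was near its level in other spots everywhere, with ratios of 0.898, 1.05, 1.08 and 1.26. Its cluster-matched ratios were 0.371, 0.525, 0.622 and 0.666, with every matched value above the L6_CT interval. Of the part that is not L6_CT, within cluster 2, the ratios were 0.685, 0.967, 1.45 and 1.52.

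Types of the upper cortical layers were seldom or never found in L6_CT spots, apart from L2_IT_RSP_ACA. L2_3_IT_CTX, the intratelencephalic type of layers 2 and 3, was in 0 of 900 L6_CT spots (exact interval up to 0.409%, counting error only) and in 567 of the other spots. To bound a fold, 0 was replaced by a limit of 3 spots, here 0.333%, which is lower than the exact bound. By section its share of other spots was 4.45%, 3.49%, 4.16% and 4.29%. These were 3.38-fold, 3.33-fold, 2.40-fold and 3.05-fold the 3-spot limits among the L6_CT spots. Most L2_3_IT_CTX spots lay in cluster 6 (79.0%), where no L6_CT spot was found. In clusters 2 and 9 it was rare too, and the cluster-matched values of the susceptible (1.18%) and ketamine-treated sections (0.937%) were under the 3-spot limits there (1.73% and 1.41%), so a difference within the clusters was not detectable in them. In the control the matched value of 1.36% was under the exact upper bound of 1.60%. L2_IT_RSPv was in 10, 6, 0 and 5 L6_CT spots, against 14.04%, 10.9%, 13.6% and 13.7% of the other spots.

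The glial partners differed from each other. Astrocytes (Astro), which were in 43.5% to 49.7% of the other spots, were in 28 control (12.3%, 8.32 to 17.3), 23 resilient (8.04%, 5.17 to 11.8), 15 susceptible (8.67%, 4.93 to 13.9) and 12 ketamine-treated L6_CT spots (5.63%, 2.94 to 9.63). Astro was thus 4.05-fold, 5.76-fold, 5.01-fold and 8.54-fold less frequent than in the other spots. Cluster-matched values of 34.9%, 17.6%, 30.9% and 35.2% were above the interval in every section, with L6_CT filling much of the spot. Of the part that is not L6_CT, within cluster 2, Astro took 6.33%, 4.31%, 5.86% and 3.44%, against 10.8%, 4.33%, 10.3% and 10.5% of the other spots, so the resilient section showed next to no difference by this measure.

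Oligo shared 60 control L6_CT spots (26.3%, 20.7 to 32.5), 36 resilient (12.6%, 8.97 to 17.0), 16 susceptible (9.25%, 5.38 to 14.6) and 20 ketamine-treated L6_CT spots (9.39%, 5.83 to 14.1). The control interval did not overlap with the others. Other spots held Oligo at 43.3%, 32.5%, 26.5% and 25.1%, so Oligo was under-represented in all sections, with ratios of 0.608, 0.387, 0.348 and 0.374. The cluster-matched values were 14.4%, 8.83%, 10.1% and 13.6%. In the control and resilient sections L6_CT spots held Oligo more often than the rest of their clusters, by 1.83 and 1.43 times, with both intervals above the matched value. In the susceptible and ketamine-treated sections the ratios were 0.913 and 0.692, and the intervals contained the matched values. Of the part that is not L6_CT, within cluster 2, Oligo took 19.3%, 8.29%, 6.19% and 7.51%, against 4.94%, 3.09%, 3.72% and 5.03% of the other spots, higher in all 4 sections. In the control and resilient sections its direction thus turned between the whole section and the matched clusters by both measures. In the susceptible and ketamine-treated sections it depended on the measure.

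Oligodendrocyte precursors (OPC) were in 1 of the 900 L6_CT spots. Microglia (Micro), the resident immune cells, were in 1 control, 8 resilient, 2 susceptible and 2 ketamine-treated L6_CT spots. Among cortical interneurons, the fast-spiking parvalbumin type (Pvalb) was the most frequent, in 9, 8, 9 and 10 L6_CT spots. Those are 3.95%, 2.80%, 5.20% and 4.69%, against cluster-matched values of 12.4%, 9.93%, 20.1% and 16.04%, all above the L6_CT intervals, whose highest bound was 9.65%. Of the part that is not L6_CT, within cluster 2, Pvalb was also lower, at 0.518, 0.413, 0.501 and 0.425 times its share of the other spots. Other interneuron types rested on few spots. Sncg was in 4 control L6_CT spots, 2.56 times as often as in other spots (0.897 to 7.32), and in 2 susceptible ones (1.80 times, 0.426 to 7.62). Sst was in 3 control L6_CT spots (2.71 times, 0.801 to 9.19), but in 1 resilient one (0.376 times, 0.0517 to 2.73). It was in 1 susceptible L6_CT spot (0.995 times) and 2 ketamine-treated ones (2.04 times, 0.470 to 8.88). Against the cluster-matched values, the ratios were 2.88, 1.18, 2.49 and 0.702 for Sncg and 0.934, 0.102, 0.356 and 0.540 for Sst. Of these, only the resilient Sst matched value, 3.44%, lay outside its L6_CT interval, whose upper bound was 1.93%. Over all 5 listed interneuron types, 2 of the 3 common enough to compare were over-represented and 1 under-represented in the control, and 1 each way in the susceptible section. In the resilient section 0 of 2 were over-represented and 1 was under-represented. The 1 type compared in the ketamine-treated section was neither. Among all types compared, 29.0% were over-represented and 58.1% under-represented in the control, and 25.7% and 42.9% in the susceptible section. The resilient section had 14.7% and 67.6%, and the ketamine-treated section 17.2% and 51.7%. Sst_Chodl, a long-range somatostatin type, was in 1 control and 1 resilient L6_CT spot and in none of the other sections.

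Of the hippocampal formation types, CA1, CA3, DG and CA2_IG_FC shared no spot with L6_CT in any section. Among all 66 other types, 26 were in none of the 900 L6_CT spots. In the susceptible section each of these hippocampal types was in at most 1.62% of the other spots. That is under the 3-spot limit of 1.73% there, so 0 could not be called lower. The near-projecting subicular type NP_SUB shared 3, 6, 2 and 2 spots. The corticothalamic type of the subiculum, CT_SUB, shared 2 control spots and 1 susceptible spot. At least 1 of the 6 listed hippocampal types was in 2.19%, 2.10%, 1.73% and 0.939% of L6_CT spots. The values for the other spots were 7.02%, 8.35%, 8.01% and 6.56%.

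**Figure D3:**
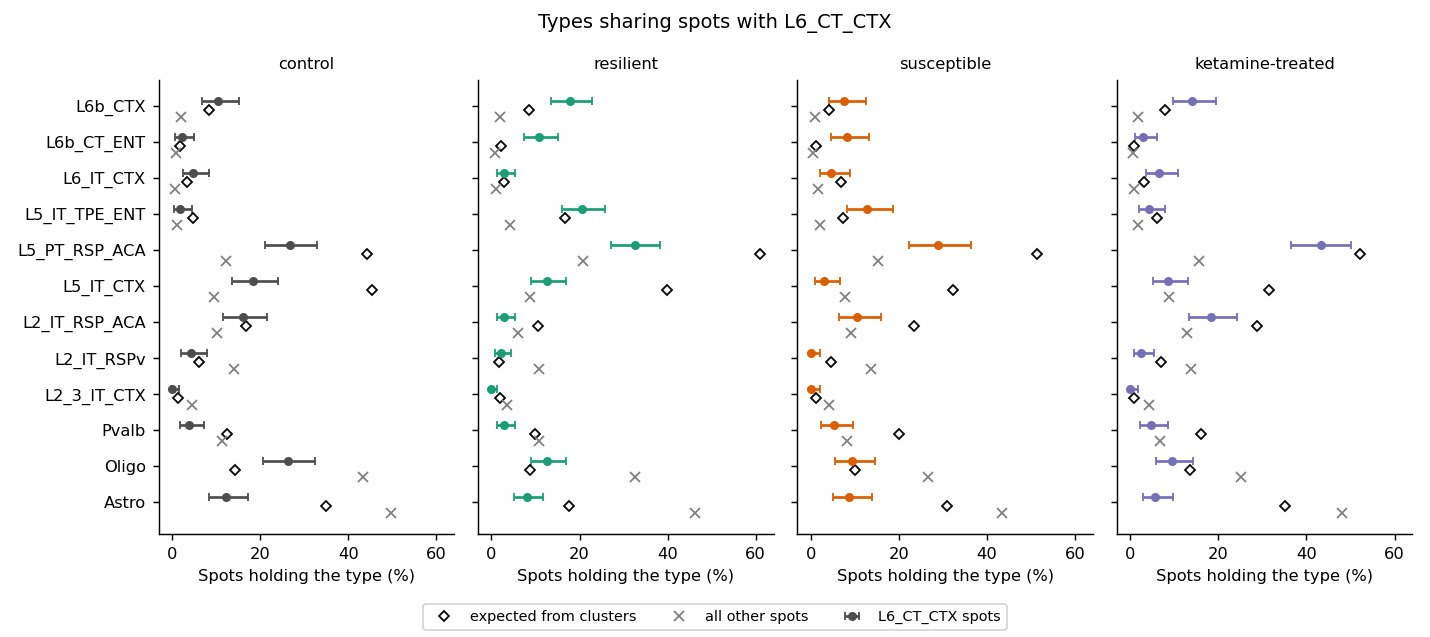
Share of spots (horizontal axes, percent) holding each of 12 partner types in the 4 sections: L6_CT_CTX spots (filled circles, with exact 95% counting intervals), the cluster-matched value (open diamonds, expected from clusters) and all other spots (crosses). For L5_PT_RSP_ACA the L6_CT value lies between the crosses and the diamonds in each section, at 26.8% to 43.2%, and for Astro it lies below both.

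The mean makeup of an L6_CT spot counts each partner by its share, not by the number of spots holding it. After L6_CT itself, the largest part in the control was Oligo at 9.03%, followed by L5_PT_RSP_ACA at 7.35%. In the resilient section it was the L5 intratelencephalic types together at 10.01%, then L5_PT_RSP_ACA at 9.01% and the L6b types at 8.45%. L5_PT_RSP_ACA came first in the susceptible section, at 9.41%, and in the ketamine-treated section, at 11.9%. With L6_CT left out of the spot, and within cluster 2, the L6b types took 8.74%, 18.2%, 14.6% and 15.2% in the order control, resilient, susceptible, ketamine-treated, against 6.35%, 6.46%, 3.38% and 6.05% of the other cluster 2 spots. GABAergic types together took 6.27%, 3.72%, 5.35% and 3.72%, against 5.84%, 6.23%, 9.31% and 7.77%, lower everywhere but in the control.

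**Figure D4:**
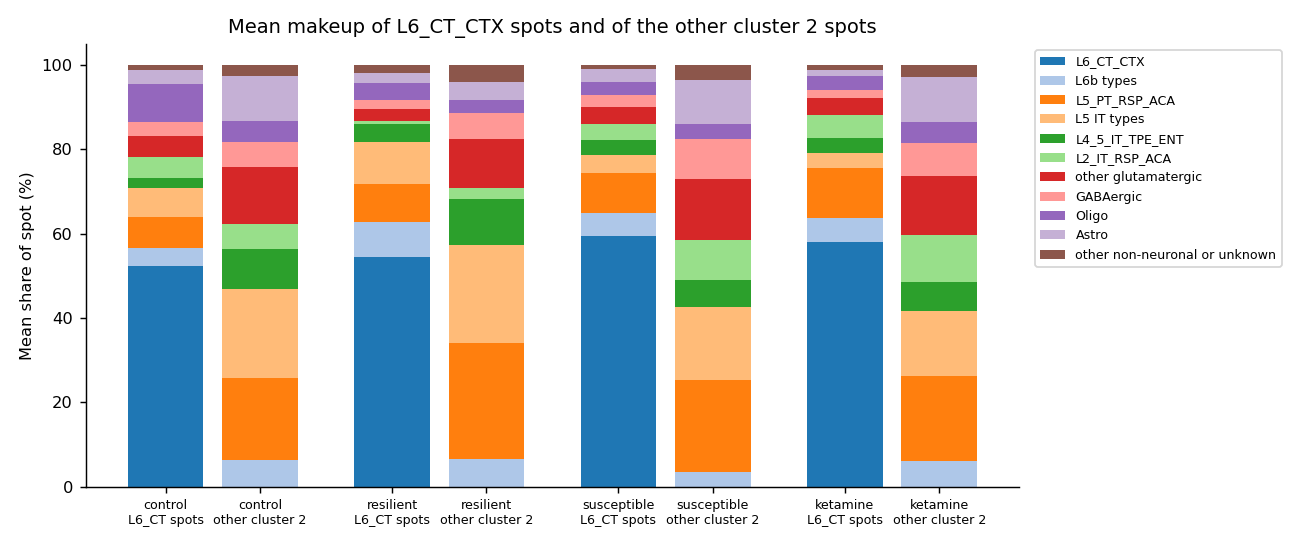
Mean makeup (vertical axis, percent of the spot, stacked from 0 to 100) of the L6_CT_CTX spots and of the other cluster 2 spots in each section; each colour is a type or group of types. Beside L6_CT, the Oligo part is largest in the control L6_CT spots (9.03%). Parts of paired bars cannot be compared directly, since L6_CT fills 52.3% to 59.4% of the first bar of each pair and, by the choice of spots, none of the second.

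L6_CT was set beside 3 other cortical types, as a description over the 4 sections together. L6_CT was alone in its spot more often (14.7% of its spots) than L2_3_IT_CTX (9.35%), L6b_CTX (7.20%) or L5_IT_CTX (2.04%). Its mean share when held was also the highest, at 55.7% against 50.01%, 44.3% and 38.5%. Clusters 2 and 9 held 97.7% of its spots, against 85.0% for L6b_CTX, 82.9% for L5_IT_CTX and 11.3% for L2_3_IT_CTX. These are the 2 leading clusters of L6_CT, so the comparison favours it. The single leading cluster of each type held 88.7% of the L6_CT, 79.0% of the L2_3_IT_CTX, 76.9% of the L6b_CTX and 68.7% of the L5_IT_CTX spots. L6b_CTX had its second largest group in cluster 7 (10.1% of its spots), and L5_IT_CTX in cluster 6 (14.4%). L6b_CTX was held by 5.12% of the susceptible cluster 2 spots and by 9.36% to 11.9% of those of the other sections, so the susceptible section was lowest for L6b_CTX as it was for L6_CT. For L5_IT_CTX these shares were 39.9%, 32.1%, 27.3% and 25.5% in the order control, resilient, susceptible, ketamine-treated, with the ketamine-treated section lowest.

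On the deposited t-SNE map, a drawing in which spots of similar profile lie close together, most L6_CT spots lay near each other. Of the 15 nearest spots of the same section, those holding L6_CT made up on average 63.04% around control L6_CT spots, 66.1% around resilient, 62.9% around susceptible and 65.4% around ketamine-treated L6_CT spots. Around the cluster 2 spots without L6_CT they made up 13.6%, 15.1%, 9.53% and 13.0%. Spots without any L6_CT neighbour were 9, 7, 10 and 12 in number. The map and the shares came from the same RNA, so this describes the type and is not separate evidence for it.

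**Figure D5:**
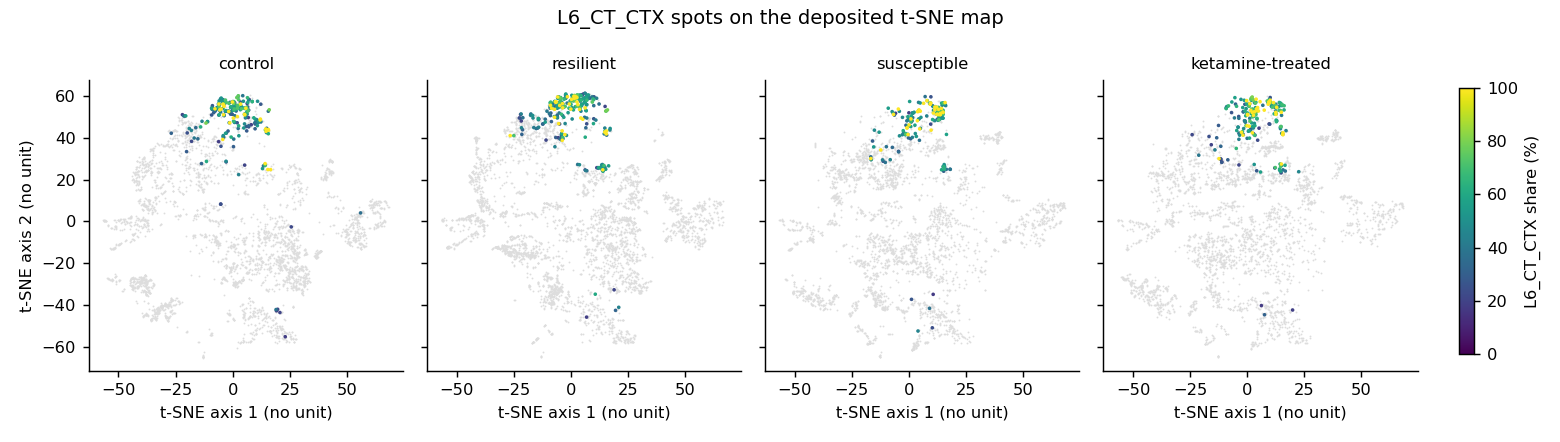
Spots of each section on the deposited t-SNE map (both axes without unit), with spots holding L6_CT_CTX coloured by share (percent) and all others grey. Most coloured spots of each section lie together at the top of the map, and those holding L6_CT made up 62.9% to 66.1% of the 15 nearest spots around them.

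The sections shared spot barcodes, each of which marks a position on the array rather than a cell. Between 2735 and 3304 barcodes were common to a pair of sections, and no mixed L6_CT spot had the same share at the same barcode in any pair. L6_CT spots fell at the same positions in some pairs and not in others. In the susceptible and ketamine-treated sections, 109 positions held L6_CT in both, which is 63.0% of the 173 susceptible and 51.2% of the 213 ketamine-treated L6_CT positions they had in common. In the control and resilient sections it was 55 positions, 26.1% of 211 and 25.7% of 214. In each of the remaining 4 pairs it was 1 position. The cluster number was the same at 53.2% of the positions shared by the susceptible and ketamine-treated sections, 25.8% for the control and resilient sections and 1.10% to 2.56% for the other pairs. The part that this placement has in the differences between sections was not tested.

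Both pairs with more shared positions were compared where a position lay in cluster 2 in both sections, a comparison chosen after these values were seen. L6_CT was held at 131 of 493 such positions in the susceptible section (26.6%, 22.7 to 30.7) and at 172 in the ketamine-treated section (34.9%, 30.7 to 39.3). Both held it at 91 positions, the susceptible section alone at 40 and the ketamine-treated section alone at 81. The intervals overlapped narrowly, and the direction was that of all cluster 2 spots. In the control and resilient sections L6_CT was held at 63 (24.5%, 19.4 to 30.2) and 134 (52.1%, 45.8 to 58.4) of 257 such positions, and at 40 in both, in the control alone at 23 and in the resilient section alone at 94. The control and resilient intervals did not overlap, and the resilient share was higher by more than 1.5-fold. Over all cluster 2 spots the direction was the same, but the ratio was only 1.14 and the intervals overlapped. At the 109 positions with L6_CT in both the susceptible and ketamine-treated sections, its mean share was 62.5% ± 23.2 and 63.4% ± 23.02 (SD over positions), and it was higher in the ketamine-treated section at 51, lower at 53 and equal at 5.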

How the data were processed

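Spatial transcriptomes were made from 4 sagittal sections on barcoded slides, per the labels' protocols. Reads were placed on mm10, per the submitters' processing notes. The authors deposited, for each spot, a cluster number and the fraction given to each of 67 types. How reads were aligned, spots clustered and shares estimated is not given in the sources used here, and total counts per spot were not analysed, so depth is unknown. t-SNE coordinates, which have no unit, were deposited for all sections, and their barcode endings were matched to the sections by identical barcode sets.

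Spots with an L6_CT fraction above 0 were counted (Python 3.11.15, pandas 2.3.3, scipy 1.17.1). Cluster numbers were taken as joint over the sections. Ratios carry log-scale counting intervals. A share of 0 was replaced by 3 spots to bound a fold. Partner counts were tested on simulated data with known ratios. Named partners are up to 8 per direction with the largest mean ratio among those past 1.5-fold in all sections and, if over-represented, in at least 20 L6_CT spots or, if under-represented, in at least 1% of the other spots of every section, plus listed layer, glial, interneuron and hippocampal types. Of the named under-represented types, Meis2, CR and VLMC were in 6, 2 and 2 L6_CT spots. The type, lists and comparisons were chosen with earlier results of these data known.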

Additional observations from a re-analysis of the deposited data

How the results depend on the processing

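Of 48 alternative values for the ratios between sections, 45 stayed within the counting interval of the main ratio and under 1.5-fold. By spots led, resilient over control was 1.34 and ketamine-treated over control 1.22, both outside the interval. With cluster 2 only, chosen after seeing the data, susceptible over resilient was 0.639, inside the interval but past 1.5-fold. The share of L6_CT spots in cluster 2 stayed within its interval under all 12 alternatives. Median shares, lower than the means, were 48.1% (control), 50.7% (resilient) and 53.2% (susceptible). Counts of over-represented types against other spots of the same clusters were 3 in the control and 3 in the ketamine-treated section; by share of the rest of the spot, 8 in the resilient section; and with no filter on sparse types, 14 in the control, 8 in the resilient and 9 in the ketamine-treated section. Counts of under-represented types against the same clusters were 10 in the control and 11 in the resilient section, and at 2-fold 11 in the control.

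Against other spots of the same clusters, a choice made after seeing the data, these partner ratios past 1.5-fold changed direction: L5_PT_RSP_ACA at 0.604, 0.533, 0.564 and 0.827 (control, resilient, susceptible, ketamine-treated); L5_IT_TPE_ENT at 0.368 (control) and 0.705 (ketamine-treated); L6_IT_CTX at 0.962 (resilient) and 0.673 (susceptible); L5_IT_CTX at 0.405 (control), and also at 0.315 in the resilient section, where its ratio of 1.42 was not past 1.5-fold; Oligo at 1.83 (control) and 1.43 (resilient); and in the resilient section L2_IT_RSPv at 1.16, CR at 3.37 and Meis2 at 2.53, with Meis2 at 2.003 in the control. By share of the rest of the spot, Micro was at 1.34 (resilient) and 1.07 (susceptible). By share of the rest of the spot within cluster 2, also chosen later, Oligo was at 3.90, 2.68, 1.66 and 1.49 in the 4 sections, L5_PT_RSP_ACA at 0.878 (control) and 0.780 (resilient), L5_IT_CTX at 0.663 (control), L6_IT_CTX at 0.918 (susceptible), L2_IT_RSPv at 1.68 and CR at 3.09 (resilient), Sst_Chodl at 1.30 and 1.44 (control, resilient), and, for control, resilient and susceptible, Meis2 at 7.32, 4.82 and 1.31 and Micro at 1.30, 1.16 and 1.83. The ratios for CR, Meis2 and Sst_Chodl rest on 1 to 3 L6_CT spots a section. No paired analysis was possible because each group has 1 section and the labels give no replicate numbers; matching array positions pairs spots, not animals. Depth per spot is unknown, and shares too small to be kept are missed. The causes of these changes were not tested.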
